A study of Mus musculus with 7 samples.

Results

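The genes described here encode the proteins of the mitochondrial ribosome, taken as every probe whose gene symbol on the array platform starts with Mrpl (large subunit) or Mrps (small subunit) followed by a digit. The platform holds 106 such probes of 75 genes, and 87 probes of 66 genes had a value, out of 13304 probes with a value on the arrays. Of the 87 probes, 50 belonged to 40 Mrpl genes and 37 to 26 Mrps genes. The other 19 probes were blank on every array, and 9 genes had no probe with a value (Mrpl15, Mrpl19, Mrpl21, Mrpl32, Mrpl39, Mrpl45, Mrpl48, Mrps14 and Mrps36), so nothing can be said of them here. The samples were whole brains of C57BL/6 female mice aged 5 weeks, measured on 7 Illumina bead arrays. One array held untreated mice and each of the other 6 held mice dosed by mouth daily with a water extract of Ephedra herba, the stems of a plant rich in ephedrine alkaloids. The doses were 50 and 1250 mg/kg, given for 1, 3 or 10 days, with 1 array for each combination of dose and day. No condition was replicated, and the number of mice behind each RNA sample is not in the labels, so every p-value speaks of the spread between these arrays and not between animals.

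The mitochondrial ribosome translates the few messages encoded in mitochondrial DNA, which specify core subunits of the respiratory chain and of ATP synthase. All of its proteins are encoded in the nucleus, made in the cytosol and imported, and they assemble there on ribosomal RNA transcribed from the mitochondrial genome. The large subunit forms the peptide bonds and the small subunit reads the message. Some proteins descend from bacterial ribosomal proteins and others exist only in mitochondria. Names do not always tell the subunit, since Mrps30 and Mrps18a sit in the large subunit of the mammalian ribosome, and both are counted below by name. In brain, where neurons draw most of their ATP from respiration, loss of several of these proteins in humans causes encephalopathy.

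Levels are the deposited log values after quantile normalization over the 7 arrays. No source used here gives the log base, which was read as 2, so that a difference of 1 is a doubling of signal, and with another base the sizes of the folds would differ while their order and the tests would not. Levels of different probes are not compared with each other as amounts of RNA, because each probe has its own brightness. On this scale the median level of the 87 probes was 3.77 on the untreated array. At 50 and then 1250 mg/kg it was 3.61 and 3.55 after 1 day, 3.40 and 3.34 after 3 days, and 3.57 and 3.60 after 10 days. The untreated array was therefore the highest and the 2 arrays of day 3 the lowest. The probes named for the large subunit had medians of 3.83 untreated, 3.70 and 3.60 after 1 day, 3.46 and 3.39 after 3 days, and 3.70 and 3.73 after 10 days. Those named for the small subunit had medians of 3.58, then 3.47 and 3.55, then 3.35 and 3.29, then 3.48 and 3.50. Both subunits were lowest on day 3 at either dose. Most of the members were bright, with 75 of the 87 (86.2%) among the brighter 6652 of the 13304 probes.

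Whole-array features moved with day 3 too. The arrays correlated with the untreated array at 0.991 to 0.996 after 1 day, 0.982 and 0.980 after 3 days, and 0.992 and 0.990 after 10 days. In the deposited values, before normalization, the median probe lay -0.12 and -0.091 from the untreated array on day 3 at 50 and 1250 mg/kg, and -0.055 and -0.085 on day 10. After normalization these medians were -0.032 and -0.036 on day 3. Neuronal markers were bright on every array, as a brain sample should give, with 5 of 7 marker genes measured at a median level of 6.06 in the untreated sample. Markers of brain regions and other tissues differed between arrays. The summed level of 4 cerebellar marker probes (Calb1 and Gabra6 had no value) was 5.97 untreated, 4.65 and 6.54 after 1 day, 13.1 and 10.8 after 3 days, and 12.6 and 17.9 after 10 days, and limma called 4 of the 4 higher on day 3 than on day 1. The summed level of 8 liver marker probes (Alb had no value) was 5.52 untreated, 5.17 and 26.4 after 1 day, 5.03 and 9.98 after 3 days, and 15.2 and 23.7 after 10 days, and 6 of 8 were called lower on day 3 than on day 1. The brightest of the 8, at 7.34 untreated, was Ttr, which also stands in the choroid plexus list below. It was the 1 liver probe above 0 on day 3 against day 1 (0.21). The sum of 2 pituitary probes was 0.982 untreated, 6.24 and 7.49 after 1 day, 5.73 and -1.17 after 3 days, and -1.5 and -1.5 after 10 days. That of 2 red cell probes ran from 7.51 to 11.3, and all 4 of these probes were called lower on day 3 than on day 1. The sums of neuronal (34.9 to 37.2), astrocyte (25.8 to 27.2) and oligodendrocyte markers (43.7 to 44.8) spanned narrower ranges over the 7 arrays. The neuronal sum was highest on day 3, at 37 and 37.2. Against day 1, 5 of the 6 neuronal probes lay above 0 on day 3 and 1 was called higher. Of 8 astrocyte probes 2 were called higher and 1 lower, and of 9 oligodendrocyte probes 1 was called higher. Some other lists were lower on day 3 than in the untreated sample. The sum of 4 endothelial probes (Cldn5 and Kdr had no value) was 7.09 untreated, 6.21 and 6.14 after 1 day, 5.85 and 5.62 after 3 days, and 5.94 and 5.92 after 10 days, with 1 of 4 called lower on day 3 than on day 1. That of 4 microglial probes (P2ry12 and Csf1r had no value) was 12.4, then 11.4 and 11.6, then 10.9 and 10.8, then 10.5 and 10.4, with 2 called lower and 1 higher on day 3. That of 3 heart and muscle probes was 9.21 untreated, 4.72 and 4.82 after 1 day, 3.92 and 4.07 after 3 days, and 8.04 and 3.5 after 10 days, with 1 called lower on day 3. Of 7 choroid plexus probes, whose sum ran from 10.9 to 13.4, 6 lay below 0 on day 3 and 1 was called lower. In whole tissue, fewer cells of a type and less RNA per cell cannot be told apart, and the part of tissue composition in the results below was not tested.

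**Figure D1:**
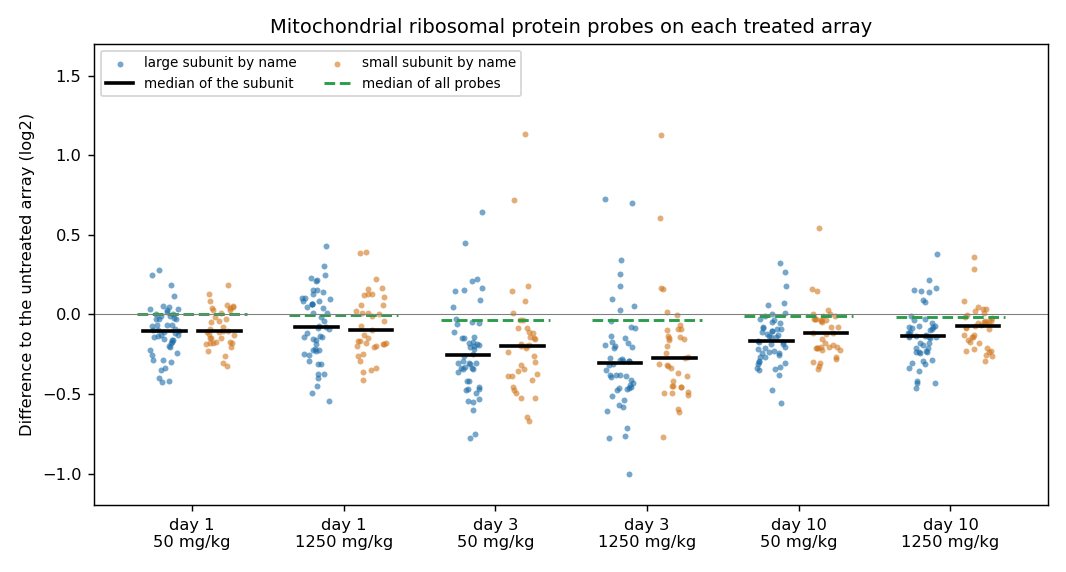
Difference of each of the 87 mitochondrial ribosomal protein probes from the untreated array (log2 scale, y axis) on the 6 treated arrays (x axis, day and dose). Points are probes, black bars the subunit medians and dashed green lines the median of all 13304 probes. The subunit medians are lowest on day 3, at -0.26 and -0.20 for 50 mg/kg and -0.30 and -0.27 for 1250 mg/kg (large and small subunit).

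The comparison of day 3 with day 1 asked whether these transcripts moved with the length of dosing, and it gave the most member calls of the 5 fitted comparisons. A fit of the 6 treated arrays in limma, with day and dose as terms and p-values adjusted over all 13304 probes, called a probe at an adjusted p under 0.05. On day 3, 16 of the 87 probes (18.4%) were called lower, beside 10.2% of all probes. Only 5 (5.75%) were called higher, beside 12% of all probes. The array as a whole moved strongly, with 22.2% of all probes called in either direction against 24.1% of the members. After quantile normalization the members thus stood apart from the background by direction and not by how many were called. In the deposited values and with median scaling, given below, more members and more of all probes were called lower, so this reading depends on the scaling. Among the members, 68 of 87 (78.2%) lay below 0 on day 3 against 55.6% of all probes, and the median difference was -0.16 against -0.038. At an unadjusted p under 0.05 there were 39 members (44.8%), against 35.4% of all probes. Among the brighter 6652 probes, 60 of 75 members (80%) lay below 0 against 55.1% of those probes, and 15 of 75 (20%) were called lower against 11.4%.

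The subunits gave similar counts. Of the 50 Mrpl probes, 8 were called lower and 2 higher, 40 lay below 0, and the median difference was -0.17. Of the 37 Mrps probes, 8 were called lower and 3 higher, 28 lay below 0, and the median was -0.15. The difference between the subunits was not tested. Both doses gave the same direction, with a member median of -0.15 and 64 of 87 below 0 at 50 mg/kg, and -0.17 and 66 below 0 at 1250 mg/kg. Both arrays of day 3 lay below all of the other 5 arrays, the untreated one included, for 36 of the 87 probes (41.4%) against 20% of all probes, and above them for 5 (5.75%) against 16.5%.

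Among the probes that fell, the first in size was that of Mrpl2, an ancient protein beside the catalytic centre of the large subunit. Its level was 4.20 untreated, 4.07 and 4.25 after 1 day, 3.43 and 3.20 after 3 days, and 3.96 and 4.13 after 10 days, each pair given at 50 and 1250 mg/kg. The arrays of day 3 were the 2 lowest with a wide gap to the rest, and the difference from day 1 was -0.85 ± 0.13 (SE, 2 arrays a day; limma adjusted p = 7.8e-05). Mrps28, a small subunit protein, read 3.36 untreated, 3.25 and 3.42 after 1 day, 2.71 and 2.74 after 3 days, and 3.01 and 3.22 after 10 days. Here too the groups did not overlap, and the difference was -0.61 ± 0.12 (limma adjusted p = 0.00115). Mrpl58, once known as Ict1, is a peptidyl-tRNA hydrolase of the release factor family built into the large subunit, where it frees stalled chains. It read 2.77 untreated, 2.65 and 2.92 after 1 day, 2.22 and 2.29 after 3 days, and 2.39 and 2.63 after 10 days, a difference of -0.53 ± 0.12 (limma adjusted p = 0.00382).

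Mrps11, a conserved protein of the small subunit platform, has 2 probes. The probe called read 3.58 untreated, 3.40 and 3.59 after 1 day, 3.06 and 2.81 after 3 days, and 3.26 and 3.37 after 10 days, with a difference of -0.56 ± 0.13 (limma adjusted p = 0.00381). Its other probe differed by -0.15 ± 0.12 and did not pass (adjusted p = 0.399). Mrps18b, one of several mammalian relatives of a bacterial small subunit protein, also has 2 probes. The brighter read 3.89 untreated, 3.98 and 4.28 after 1 day, 3.55 and 3.58 after 3 days, and 3.78 and 3.90 after 10 days, with a difference of -0.56 ± 0.12 (limma adjusted p = 0.00228), and the dimmer differed by -0.30 ± 0.12 (adjusted p = 0.0872). Mrpl11, which forms the base of the stalk where translation factors dock, read 3.68 untreated, 3.71 and 3.54 after 1 day, 3.19 and 3.10 after 3 days, and 3.38 and 3.51 after 10 days. That was a difference of -0.48 ± 0.12 (limma adjusted p = 0.00766). In each of these 3 genes the called probe was lower on both arrays of day 3 than on every other array.

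The other 10 probes called lower differed by between -0.45 (Mrps9) and -0.35 (Mrpl46). They were Mrps9, Mrps16, Mrps10, Mrps5 and Mrps34 of the small subunit and Mrpl27, Mrpl55, Mrpl46 and 2 probes of Mrpl49 of the large subunit. For all of them but Mrpl27, both arrays of day 3 lay below the other 5. The brightest of them was Mrps34, a small subunit protein found only in mitochondria, at 5.49 untreated, 5.53 and 5.51 after 1 day, 5.14 and 5.10 after 3 days, and 5.44 and 5.51 after 10 days (-0.40 ± 0.11, limma adjusted p = 0.013). The 5 arrays outside day 3 spanned only 5.44 to 5.53 for it.

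Against this direction, 5 probes rose on day 3. The first in size was that of Mrps15, a protein that binds ribosomal RNA in the small subunit. It read 0.00 untreated, 0.05 and 0.40 after 1 day, 1.14 and 1.13 after 3 days, and 0.55 and 0.36 after 10 days, a difference of 0.91 ± 0.13 (limma adjusted p = 6.6e-05). Its signal was among the dimmest of the members, so its fold depends on a background step that is not known. Mrpl20, whose bacterial relative is needed early in assembly of the large subunit, read 2.42 untreated, 2.08 and 2.63 after 1 day, 3.06 and 3.12 after 3 days, and 2.10 and 2.80 after 10 days. The difference was 0.73 ± 0.14 (limma adjusted p = 0.000872), and both arrays of day 3 were above all others.

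Mrpl52, a large subunit protein found only in mitochondria, read 1.88 untreated, 1.86 and 2.11 after 1 day, 2.33 and 2.61 after 3 days, and 2.07 and 2.10 after 10 days (0.48 ± 0.12, limma adjusted p = 0.00833). The gain was carried by both arrays of day 3. Mrps6, a small subunit protein of bacterial descent, read 3.21 untreated, 3.04 and 2.96 after 1 day, 3.35 and 3.36 after 3 days, and 3.36 and 3.16 after 10 days (0.36 ± 0.12, limma adjusted p = 0.0356), so day 3 overlapped with day 10. Its call was lost in the deposited values (0.23, limma adjusted p = 0.184), with median scaling (0.27, adjusted p = 0.112) and without any 1 of the arrays of days 1 and 3 (adjusted p 0.092 to 0.369). Mrps25, another small subunit protein found only in mitochondria, was called higher on the dimmest of its 3 probes, at 0.63 untreated, 0.76 and 0.86 after 1 day, 1.35 and 1.24 after 3 days, and 0.66 and 0.92 after 10 days (0.49 ± 0.13, limma adjusted p = 0.00941). Its 2 brighter probes differed by -0.20 ± 0.12 and -0.087 ± 0.12 and did not pass, so the gene has no single direction.

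The number of probes called rests on few arrays. The median difference stayed at -0.16 to -0.19 whichever treated array was left out. Without the array of day 3 at 1250 mg/kg, however, day 3 held 1 array, and the share of members called lower was about that of all probes. The excess of lower calls among the members was thus not seen without that array. Most of the lower calls were lost without it, and losses are named here only for the 6 highest and 6 lowest called probes. Mrpl46, itself called lower, counts among the 6 highest. Of these, Mrps11, Mrps18b, Mrpl58, Mrpl11, Mrpl46, Mrpl52 and Mrps6 lost their call without that array. Without the array of day 3 at 50 mg/kg, Mrpl20 (0.45), Mrps25 (0.35) and again Mrpl46 and Mrps6 lost their call. Mrpl11, Mrpl46, Mrpl52, Mrps11, Mrps25 and Mrps6 also lost their call without 1 of the arrays of day 1. In the deposited values without further normalization 44 members were called lower, against 20.4% of all probes, with 9.94% of all probes called higher. With each array centred on its median 35 were, against 16.5%, with 11.4% of all probes higher.

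**Figure D2:**
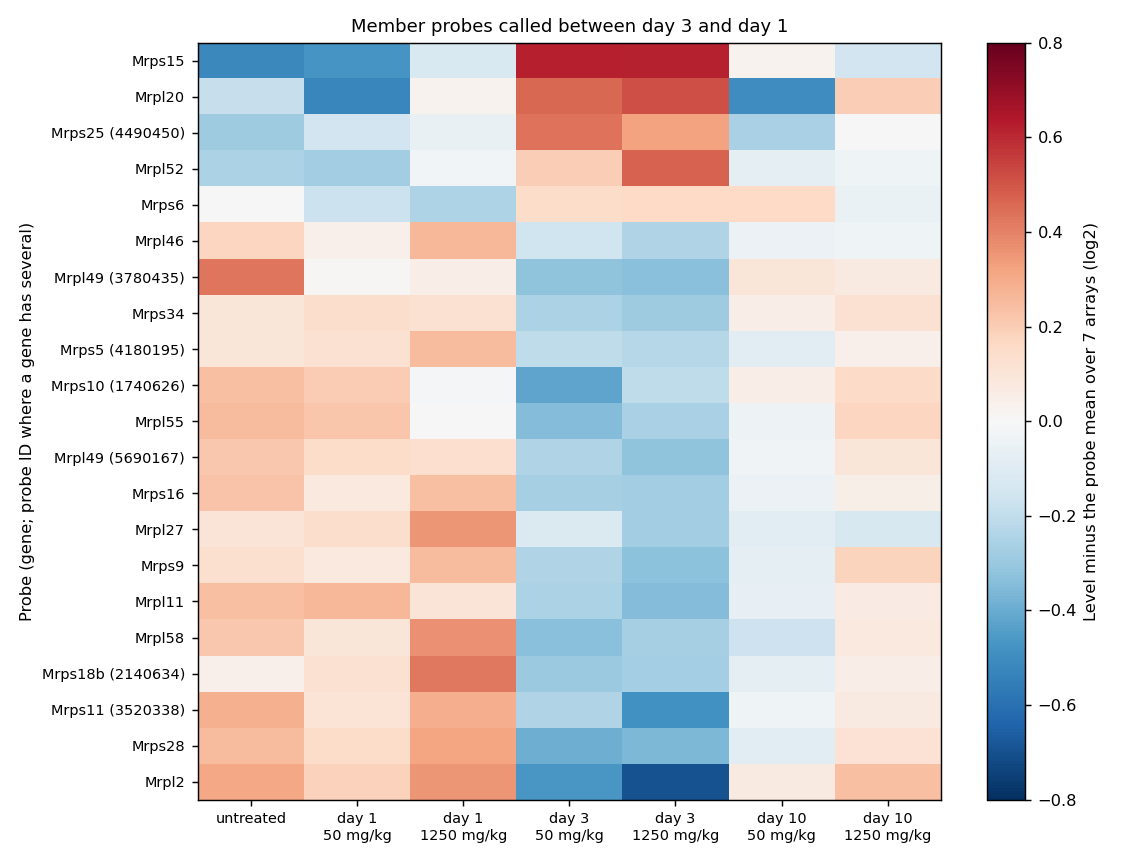
Level of each of the 21 probes called between day 3 and day 1 on the 7 arrays, as the difference from that probe's mean (colour, log2 scale, from -0.8 to 0.8). Each line of cells is a probe and each column an array. The 2 columns of day 3 hold the lowest values of 15 of the 16 probes that fell and the highest values of 4 of the 5 that rose.

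To set called genes of both directions side by side, the stretch around the transcription start is shown for the 2 genes lowest and the 2 highest among those called that have 1 promoter entry. Each is 300 bases, from 250 before to 50 after the start, taken from RefSeq on mouse build GRCm38.p6, 5′ to 3′ on the strand of the gene. Capitals mark a match to CCGGAAG, a core bound by ETS factors such as GABP (also called NRF2), to AAGATGGCG, a core bound by YY1, or to the palindromic site of NRF1, each searched on both strands. These factors are textbook regulators of nuclear genes for mitochondria. Mrps11 lies at chr7:78782881-78783180 on the plus strand, Mrps18b at chr17:35916391-35916690 on the minus strand, Mrps15 at chr4:126046678-126046977 and Mrpl20 at chr4:155802628-155802927, both on the plus strand.
Mrps11: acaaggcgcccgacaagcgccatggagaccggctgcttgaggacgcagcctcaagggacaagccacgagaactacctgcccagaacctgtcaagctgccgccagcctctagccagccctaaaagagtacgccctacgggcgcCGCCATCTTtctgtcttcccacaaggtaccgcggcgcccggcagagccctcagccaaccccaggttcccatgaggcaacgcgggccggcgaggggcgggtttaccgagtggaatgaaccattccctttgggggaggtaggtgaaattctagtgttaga
Mrps18b: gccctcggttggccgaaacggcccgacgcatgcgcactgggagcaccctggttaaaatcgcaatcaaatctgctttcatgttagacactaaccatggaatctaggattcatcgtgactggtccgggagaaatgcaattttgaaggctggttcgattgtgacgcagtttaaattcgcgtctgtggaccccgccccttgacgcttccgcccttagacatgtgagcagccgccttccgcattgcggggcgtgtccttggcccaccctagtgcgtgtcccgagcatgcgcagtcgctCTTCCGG
Mrps15: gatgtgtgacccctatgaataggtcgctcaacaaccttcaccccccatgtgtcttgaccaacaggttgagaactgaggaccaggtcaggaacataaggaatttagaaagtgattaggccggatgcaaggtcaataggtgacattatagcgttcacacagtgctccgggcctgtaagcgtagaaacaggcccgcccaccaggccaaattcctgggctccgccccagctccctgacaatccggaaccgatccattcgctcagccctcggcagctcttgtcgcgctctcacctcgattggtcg
Mrpl20: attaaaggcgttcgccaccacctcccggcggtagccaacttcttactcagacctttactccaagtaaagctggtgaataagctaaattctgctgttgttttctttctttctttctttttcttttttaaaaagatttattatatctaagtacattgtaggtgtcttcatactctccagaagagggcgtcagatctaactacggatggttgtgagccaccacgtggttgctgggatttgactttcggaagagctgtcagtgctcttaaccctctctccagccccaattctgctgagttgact
The promoter of Mrps11, which fell, holds a YY1 match and that of Mrps18b, which fell, an ETS match at its end, while those of Mrps15 and Mrpl20, which rose, hold none of the 3 motifs. Of the 66 genes, 59 matched the promoter table, with 62 promoters. Mrpl13, Mrpl38, Mrpl4, Mrpl54, Mrps28, Mrps34 and Mrps35 were not matched. The ETS core was present in 23 of the 62 (37.1%), against 8.86% of all 32851 promoters and 15.7% of the 9577 promoters of genes with a value. The YY1 core was present in 8 (12.9%), against 1.4% and 2.82%. The NRF1 site was present in 1 (1.61%), against 0.971% and 1.86%. Among the called genes the ETS core was present in 4 of the 16 promoters of those that fell (25%) and 1 of the 5 of those that rose (20%), both shares below that of all member promoters. Several promoters can belong to 1 gene, such as the 3 of Mrpl2, none with a match. These matches describe letters in a window and show no binding.

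By day 10 the median difference of the members from day 1, over both doses, was smaller than on day 3. It was -0.16 on day 3 and -0.042 on day 10 after quantile normalization, but -0.33 and -0.16 in the deposited values, so how far the members came back depends on the scaling. At 1250 mg/kg their median level was higher on day 10 (3.60) than on day 1 (3.55). The median of the probe differences there was -0.0515, and 0 for the small subunit. Between day 10 and day 3, 5 of the 87 probes (5.75%) were called higher, beside 3.95% of all probes, and 4 (4.6%) lower, beside 7.71%. All 9 had been called in the opposite direction between day 3 and day 1, but both comparisons use the same arrays of day 3, so this is one pattern seen from both sides. Those that rose again were Mrpl2 (0.74 ± 0.13, limma adjusted p = 0.00054), Mrps10, Mrpl49, Mrps28 and Mrps34, the last 4 by 0.36 to 0.42. Those that came down were Mrps15 (-0.68, limma adjusted p = 0.00192), Mrpl20 (-0.64, adjusted p = 0.00477), the dim probe of Mrps25 (-0.51, adjusted p = 0.0121) and Mrpl52 (-0.39, adjusted p = 0.0467). The median difference of the members was 0.14 against 0.030 for all probes, and 23 of 87 (26.4%) lay below 0 against 44.1%. The median was 0.14 for the large and 0.13 for the small subunit, and over all members it was 0.084 at 50 mg/kg and 0.18 at 1250 mg/kg. Of the 9, each lost its call without at least 1 of the treated arrays. The number of members called higher depended on which array was left out, and so did the share of all probes called higher. Without an array of day 3 or day 10, the member share was near or below that of all probes. Without an array of day 1 it was above that of all probes.

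Between day 10 and day 1 no member was called by limma, beside 2.5% of all probes (1.8% higher and 0.699% lower), and 8 of 87 had an unadjusted p under 0.05 (9.2%, against 17.9% of all probes). The median difference was -0.042 against -0.012 for all probes, with 54 of 87 (62.1%) below 0 against 52.6%. The lowest adjusted p belonged to Mrpl9, a large subunit protein of bacterial descent, which read 3.37 untreated, 3.36 and 3.41 after 1 day, 3.20 and 3.17 after 3 days, and 3.03 and 2.94 after 10 days (-0.41 ± 0.12, limma adjusted p = 0.0771). Its values were lower on each later day at both doses. Next below it were Mrpl27 (-0.35, adjusted p = 0.129) and Mrps18b (-0.28, adjusted p = 0.214). At the other end stood Mrpl50 (0.33, adjusted p = 0.17), Mrpl42 (0.28, adjusted p = 0.204) and Mrps6 (0.26, adjusted p = 0.254). In the deposited values 3 of the 87 members were called lower on day 10, beside 3.56% of all probes. With each array centred on its median 2 of the 87 were, beside 2.64% of all probes. Both member shares were thus near those of all probes.

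The 2 doses were compared over 3 arrays each with the day held fixed. No member was called by limma in either direction, beside 0.143% of all probes, all of them higher, and 2 of 87 members had an unadjusted p under 0.05 (2.3%, against 5.41% of all probes). The median difference of 1250 against 50 mg/kg was 0.0014, against -0.0027 for all probes, with 43 of 87 (49.4%) below 0 against 50.9% of all probes. The SE of a single probe ran from 0.0885 to 0.119, which limits how small a dose difference could be seen. The 2 probes nearest to a call were both of the large subunit. Mrpl20 was higher at 1250 mg/kg by 0.55 on day 1, 0.060 on day 3 and 0.70 on day 10 (0.44 ± 0.11, limma adjusted p = 0.404). Its gap was small only on day 3, where both doses were high. Without either array of day 3 the difference was 0.62. That is 1 result and not 2, since both fits then take the dose difference from days 1 and 10 alone. The brightest of 3 probes of Mrpl51 was lower at 1250 mg/kg by -0.34, -0.24 and -0.27 on days 1, 3 and 10 (-0.28 ± 0.099, limma adjusted p = 0.785). The other 2 probes of Mrpl51 differed by 0.095 and -0.13. Next came Mrpl58 and Mrpl54 at 0.19 each and Mrps25 and Mrpl43 at -0.19 each, none of them called.

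**Figure D3:**
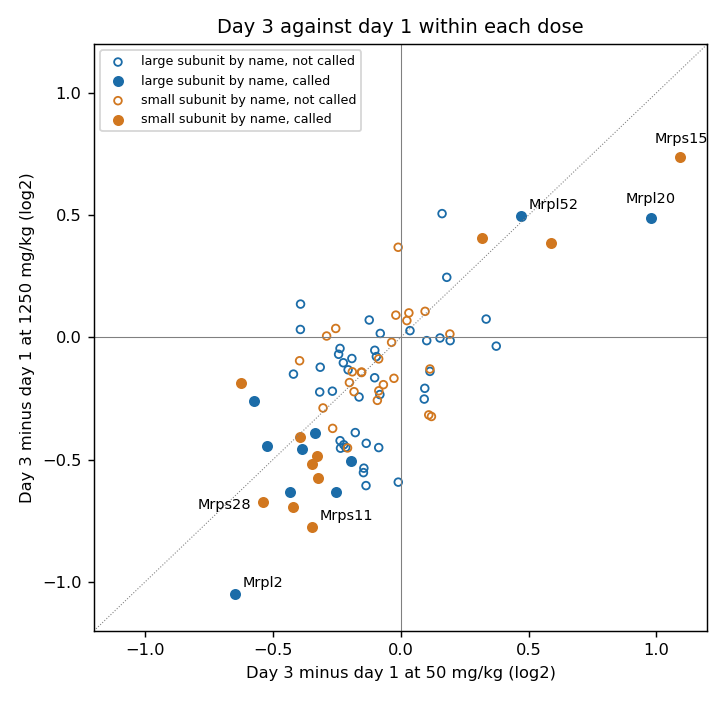
Difference of day 3 from day 1 for each of the 87 probes at 50 mg/kg (x axis) and at 1250 mg/kg (y axis), log2 scale, 1 array a side in each. Points are coloured by subunit and filled where limma called the probe over both doses. The 16 probes that fell and the 5 that rose have the same sign at both doses.

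Against the untreated array, the 6 treated arrays as a group gave no call among the members and none among the 13304 probes by limma, in a fit that assumes the 1 untreated array to vary like the treated ones. At an unadjusted p under 0.05 there were 4 of 87 members and 268 probes in all (2.01%). The direction was uneven, with 76 of 87 members (87.4%) below 0 against 52.7% of all probes, 42 of 50 in the large and 34 of 37 in the small subunit, and a member median of -0.16 against -0.011. In the related gene lists described below, the share below 0 ran from 45.8% (mitochondrial transcription and RNA handling) to 73.9% (assembly of the mitochondrial ribosome). It was 68.1% for oxidative phosphorylation, with a median of -0.085. The untreated array was above all 6 treated arrays for 35 of the 87 probes (40.2%, against 14.2% of all probes) and below all of them for 2 (2.3%, against 11.1%), the dim probes of Mrps15 and Mrps25. As every one of these differences uses the same untreated array, they are not separate observations, and a feature of that array alone cannot be told apart from treatment. The 4 members with an unadjusted p under 0.05 were a probe of Mrpl49 (-0.50 ± 0.20), Mrpl34 (-0.49 ± 0.18), Mrps21 (-0.38 ± 0.16) and Mrpl53 (-0.36 ± 0.14), each with an adjusted p of 1. Mrpl53 read 5.13 untreated and 4.65 to 4.99 on the treated arrays, with no day standing apart. Mrps21 read 4.90 untreated, 4.58 and 4.49 after 1 day, 4.37 and 4.30 after 3 days, and 4.67 and 4.67 after 10 days. At the other end were Mrps15 (0.60), Mrps25 (0.33) and Mrpl52 (0.30).

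Array by array, with 1 array a side and so no test, the median member differed from the untreated array by -0.11 and -0.079 after 1 day, -0.22 and -0.29 after 3 days, and -0.14 and -0.12 after 10 days, the low dose given first. All 6 medians were below 0. The members below 0 numbered 64 and 50 of 87 on day 1 (49.2% and 50% of all probes were below 0), 72 and 74 on day 3 (54.6% and 54.8%) and 74 and 71 on day 10 (51.3% and 52.5%). The smallest excess was thus on day 1 at the high dose, and day 10 held as many members below 0 as day 3 but closer to it. A difference of at least 1.5-fold, which is 0.585 on this scale, was reached by 0 members on the arrays of day 1 and day 10. Of all probes, 0.0977% were that much higher and 0.173% that much lower on day 1 at the low dose. The high dose gave 0.504% and 0.504% on that day. On day 10 the shares of all probes were 0.902% and 0.526% at 50 mg/kg and 1.4% and 0.616% at 1250 mg/kg. On day 3 it was reached by 3 higher and 5 lower at 50 mg/kg (5.37% and 2.08% of all probes) and by 4 higher and 8 lower at 1250 mg/kg (6.16% and 2.52%). In the deposited values 20 and 18 members were at least 1.5-fold lower on day 3 and 2 and 1 on day 10, low dose first. The share of all probes that much lower in those values is not given here. The member medians on day 3 were then -0.42 and -0.38. All probes had medians of -0.12 and -0.091 in those values, and the brighter 6652 probes -0.21 and -0.14, so the whole array lay lower too. With median scaling 17 were that much lower on day 3 at the low dose, and 2 lower and 1 higher on day 10 at the low dose.

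The extremes changed from day to day. On day 3 Mrps15 was the highest at both doses (1.13 and 1.13), followed by Mrps25 at 50 mg/kg and Mrpl52 at 1250 mg/kg (0.72 each), and Mrpl2 the lowest (-0.78 and -1.0), followed by Mrpl49 (-0.75) and Mrpl34 (-0.78). On day 1 the highest were probes of Mrpl49 (0.28) and Mrpl1 (0.25) at 50 mg/kg and of Mrpl49 (0.43) and Mrps15 (0.39) at 1250 mg/kg. The lowest on day 1 were Mrpl53 (-0.43) and another probe of Mrpl49 (-0.42) at 50 mg/kg, and Mrpl42 (-0.54) and Mrpl12 (-0.49) at 1250 mg/kg. Mrpl12 is the stalk protein that recruits translation factors and also binds the mitochondrial RNA polymerase. It read 5.30 untreated, 5.22 and 4.80 after 1 day, 4.83 and 4.84 after 3 days, and 5.0 and 5.05 after 10 days, so only the low dose on day 1 stayed near the untreated level. On day 10 the highest were Mrps15 (0.54) and Mrpl50 (0.33) at 50 mg/kg and Mrpl20 (0.38) and Mrps15 (0.36) at 1250 mg/kg. The lowest there were Mrpl34 (-0.56) and Mrpl53 (-0.48) at 50 mg/kg and Mrpl49 (-0.46) and Mrpl9 (-0.43) at 1250 mg/kg.

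Members differed widely in how far they moved. Over the 7 arrays the range from lowest to highest was widest for Mrps15 (1.13), Mrpl2 (1.05), Mrpl20 (1.04), Mrpl34 (0.78) and Mrps11 (0.78). Mrpl34 read 4.29 untreated, 3.89 and 4.06 after 1 day, 3.74 and 3.51 after 3 days, and 3.73 and 3.87 after 10 days, and just missed a call on day 3 (-0.35, limma adjusted p = 0.0524). The narrowest were Mrps33 (0.185), Mrps22 (0.189), 2 probes of Mrps31 (0.192 and 0.193) and Mrpl30 (0.196), so that several members hardly moved while others changed by a doubling. Mrps33 was also the brightest probe of the small subunit, with a mean of 5.84, before Mrps24 (5.51) and Mrps34 (5.39). In the large subunit the brightest were Mrpl28 (5.24), Mrpl23 (5.16) and Mrpl12 (5.01). Mrps30 and Mrps18a, the large subunit proteins with small subunit names, differed by 0.18 and -0.25 on day 3 from day 1 and were not called.

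Of the 66 genes, 16 had at least 2 probes, and these show how far a result depends on the probe. Between day 3 and day 1, all probes lay below 0 in 10 of the 16 genes, all above 0 in 1, and the signs differed in 5. Between the doses the signs differed in 11. Mrpl49 had 4 probes, all between -0.42 and -0.34 on day 3 against day 1, of which 2 were called and the others had adjusted p-values of 0.0513 and 0.0544. Against the untreated array, however, the probes of Mrpl49 spanned -0.50 to 0.15. Mrps25 spanned -0.20 to 0.49 on day 3, and Mrpl43 spanned -0.20 to 0.33 between day 10 and day 3, none of these probes of Mrpl43 called. Probes of one gene can match different transcripts, which was not examined.

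Other genes of mitochondrial translation were set beside the members on day 3 against day 1, where 10.2% of all probes were called lower, 12% higher and 55.6% lay below 0. Of 23 probes of 18 genes for assembly of the mitochondrial ribosome, 5 were called lower (21.7%) and 1 higher (4.35%), 18 lay below 0 (78.3%), and the median was -0.21. The lowest was a probe of Rbfa, which acts in maturation of the small subunit, at 4.17 untreated, 4.25 and 4.32 after 1 day, 3.62 and 3.65 after 3 days, and 3.99 and 4.11 after 10 days (-0.65, limma adjusted p = 0.000473). The other 4 were Mtg2 (-0.47), Mrm3 (-0.45), Mettl17 (-0.37) and C1qbp (-0.35), and the probe that rose was of Mterf3 (0.48). Of 23 probes of 16 genes for charging mitochondrial transfer RNA, 4 were called lower (17.4%) and 0 higher, 16 lay below 0 (69.6%), and the median was -0.12. Those called were Fars2 (-0.54), Kars (-0.48), a probe of Gatb (-0.45) and a probe of Pars2 (-0.42), of which Kars also serves the cytosol. The other probes of Gatb differed by -0.30, 0.017 and -0.22 and the other probe of Pars2 by -0.28, none of them called.

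In the next 3 lists at most 1 probe each was called lower. Of 13 probes of translation factors, 10 lay below 0 (76.9%, against 55.6% of all probes) with a median of -0.073, and 1 was called, which rose. This was Mtrf1l, a release factor, at 0.02 untreated, -0.04 and -0.07 after 1 day, 0.85 and 0.74 after 3 days, and 0.33 and 0.17 after 10 days (0.85, limma adjusted p = 4.84e-05). Like Mrps15 it was dim before it rose. Of 24 probes for mitochondrial transcription and RNA handling, 2 rose (Trmt10c by 0.68 and a probe of Lrpprc by 0.59) and 1 fell (a probe of Elac2, -0.69), with 13 below 0 (54.2%) and a median of -0.057. The other probe of Elac2 differed by -0.18 and the other probes of Lrpprc by -0.15 and 0.17, none of them called. Of 7 probes of 4 mitochondrial ribosome genes with other names, 0 were called, and their differences ran from -0.19 (Mpv17l2) to 0.11 (Dap3). Only 3 of these 7 lay below 0 (42.9%, against 55.6% of all probes), with a median of 0.025, so the list did not share the lower median of the members.

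The subunits of oxidative phosphorylation encoded in the nucleus and the proteins of the cytosolic ribosome were picked by the start of their symbols, which also takes in some assembly factors and relatives. Of 94 oxidative phosphorylation probes, 17 were called higher (18.1%, against 12% of all probes) and 11 lower (11.7%, against 10.2%) on day 3, with a median of -0.057. Of 63 cytosolic ribosome probes, 10 were called higher (15.9%) and 7 lower (11.1%), with a median of -0.043. Both medians lay near that of all probes (-0.038), while the median of the mitochondrial ribosome genes was -0.16. The difference between the lists was not tested. Between the doses 0 probes were called in any of these lists.

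**Figure D4:**
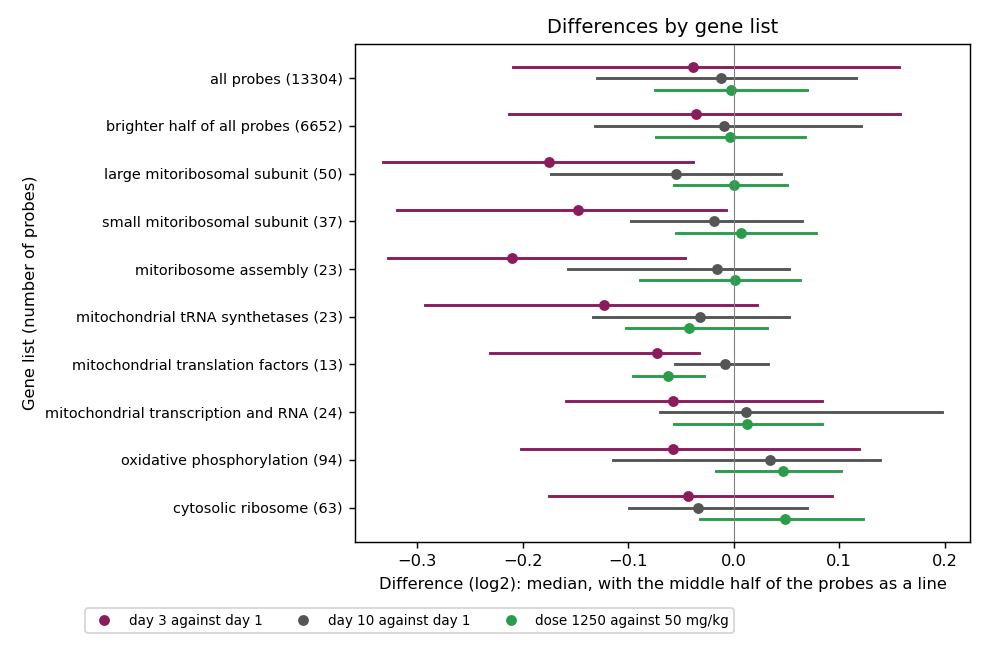
Median difference (point) and middle range of the probes, from the 25th to the 75th percentile (line), on the log2 scale for 10 sets of probes and 3 comparisons. On day 3 against day 1 the mitochondrial ribosome assembly genes (-0.21) and both subunits (-0.17 and -0.15) lie lowest, against -0.038 for all probes.

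Of all probes outside the members, 3 followed the mean of the 87 centred member probes most closely over the 7 arrays. That mean was 0.12 untreated, 0.027 and 0.056 after 1 day, -0.081 and -0.13 after 3 days, and -0.012 and 0.015 after 10 days. The closest was Scamp3, a membrane protein of vesicle traffic, with a Pearson correlation of 0.991 over 7 arrays. It read 2.46 untreated, 2.22 and 2.28 after 1 day, 1.90 and 1.79 after 3 days, and 2.14 and 2.25 after 10 days. The others were Pmpca (0.986), the alpha subunit of the peptidase that trims the import signals of mitochondrial proteins, whose probe was dim at 0.19 untreated and -0.17 on day 3 at 1250 mg/kg, and Zfp768 (0.982), a zinc finger protein. These 3 were picked from all probes as the closest, so the correlations are given as a description with no test.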

How the data were processed

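Total RNA of mouse brain was amplified to biotin-labelled cRNA and read on Illumina bead arrays, per the labels. The starting point was the deposited values of the authors, taken as log2. Their log base, background step, normalization and rule for blank probes are not stated in any source used here, and the base was read as 2 from their span. A value on every array was present for 13304 of 25697 probes (51.8%). The 7 columns of a deposited intensity table match no sample label and were not used. Symbols came from the platform annotation of 2013, updated by Entrez number (GRCm38.p6), and 1154 probes are unnamed here.

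The values were quantile normalized over the 7 arrays and tested in R 4.3.3 with limma 3.58.1 (lmFit, eBayes with an intensity trend, Benjamini-Hochberg adjustment over 13304 probes, called at an adjusted p under 0.05). One fit of the 6 treated arrays with day and dose as terms gave the dose and day contrasts, with 2 residual and 18 prior degrees of freedom, so most of the weight in a standard error comes from the variance trend over all probes, and a dose effect that varies by day enters the residual. A fit of all 7 arrays gave treated against untreated, with 5 residual and 5.75 prior degrees of freedom. Depth has no meaning for arrays, and their number limits the precision.

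Named members are those called (the 6 highest and 6 lowest where over 12 were called), the 3 highest and 3 lowest of each contrast, the 2 highest and 2 lowest of each array, genes whose probes disagree in sign or by over 0.5, the 5 widest and 5 narrowest ranges, the 3 brightest of each subunit, the 3 probes most like the member mean, and called or extreme genes of the lists. The other called probes, Mrps30, Mrps18a and the probes near the threshold were added after their values were seen. The members, the lists and the tests were chosen with earlier results of these data known. The alternatives tried were the deposited values, median scaling, the brighter probes alone, no intensity trend, 1 probe per gene, no block and leaving out each treated array. Motifs were searched in RefSeq promoters of 300 bases.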

Additional observations from a re-analysis of the deposited data

Results flagged for a closer look

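The dose difference of the members changed sign between days. The median difference of 1250 against 50 mg/kg over the 87 probes was 0.043 on day 1, -0.033 on day 3 and 0.048 on day 10, with 37, 55 and 36 of the 87 below 0. Each value compares 1 array with 1 array, and the difference between the days was not tested.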

How the results depend on the processing

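No result reversed under the alternatives run, and of the values of the comparisons 194 stayed near those reported and 55 moved. Of the other values checked, 380 stayed the same, 55 became weaker and 8 stronger. In the deposited values 44 members were called lower on day 3 than on day 1 (16 of the 16 among them) with a median of -0.33, where all probes had -0.11, and 3 lower on day 10 than on day 1 with a median of -0.16. The median of treated against untreated was -0.24, and the array medians (low dose first) were -0.42 and -0.38 on day 3 and -0.25 and -0.24 on day 10, with 20, 18, 2 and 1 members at least 1.5-fold lower. All probes had array medians of -0.12, -0.091, -0.055 and -0.085 in those values. With median scaling 35 (15 of the 16 among them) and 2 were called lower, with medians of -0.29 and -0.12. The array medians were then -0.37, -0.35, -0.22 and -0.18, with 17 members at least 1.5-fold lower on day 3 at 50 mg/kg and 1 higher and 2 lower on day 10 at 50 mg/kg. Among all probes, 9.94% were called higher and 20.4% lower on day 3 in the deposited values and 11.4% and 16.5% with median scaling, beside 12% and 10.2%. On day 10 against day 1, 3.56% and 2.64% of all probes were called lower in these settings, close to the member shares. Among the brighter probes 3 members were called higher on day 3 and 2 lower on day 10 against day 3, and 1 and 2 were at least 1.5-fold higher on day 3 at 50 and 1250 mg/kg, fewer because dim members were left out. Of all brighter probes, 12.3% were called higher on day 3 and 7.08% lower on day 10 against day 3. With 1 probe per gene, and likewise with no block, 3 were called higher and 2 lower on day 10 against day 3. Of all probes, 3.69% were called higher and 6.83% lower with 1 probe per gene, and 2.92% and 6.67% with no block. With 1 probe per gene the median on day 3 at 50 mg/kg was -0.26, and 3 and 4 genes were at least 1.5-fold lower on day 3. Leaving out 1 treated array gave 3 to 21 called lower and 3 to 5 higher on day 3 against day 1, with medians from -0.19 to -0.16. It gave 1 to 16 higher and 1 to 4 lower on day 10 against day 3, 0 to 2 lower on day 10 against day 1 with medians from -0.074 to -0.020, and 0 to 1 higher for dose. The cause of these changes was not tested. Mrpl2 and Mrps28 kept their call on day 3 against day 1 under every alternative run, and Mrps15 under every one that included it. No paired analysis was possible because each condition has 1 array, so no replicate numbers are shared. The background step could not be varied because scanner intensities were not used.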
